A study of Microtus ochrogaster with 51 samples.

Results

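Female prairie voles (Microtus ochrogaster) that had lost their partner were compared with females still living with one, in bulk RNA-seq of the nucleus accumbens. The comparison holds 21 of the 51 animals of the study, 1 library each, chosen by their labels and not by any measured value: 12 females paired with a male for 2 weeks and then separated for 4 weeks, against 9 females sampled after 2 weeks of pairing. All were bred in 1 university colony, and the labels name no transgene, drug or age. The interval of 4 weeks comes from the treatment label and the design text. The 21 libraries are among the 42 in the deposited table of normalized counts, and the partners of these females make up the other 21. A 2-week female numbered 15 is in the TPM table only. That animal stayed out of the comparison of normalized counts and entered only the TPM fit given below. Female 9 was kept because the normalized table holds a column for that animal.

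The prairie vole is a rodent that forms lasting pair bonds between mates. The nucleus accumbens, in the ventral striatum, is built mainly of GABAergic medium spiny neurons that carry dopamine D1 or D2 receptors, and signalling by dopamine, oxytocin and vasopressin in the ventral forebrain is known to take part in forming and keeping such bonds. Separation from a partner is used as a laboratory model of bond loss. In bulk tissue, fewer cells of a type and less RNA per cell cannot be told apart.

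The deposited tables list 23038 Ensembl gene IDs without names, and 0 of them matched the reference gene table of 26397 genes. No pathway, cell type or sequence could therefore be tied to an ID, and the tissue label could not be checked against marker genes. The results below describe where the difference lies: in abundant or rare transcripts, in transcripts found in all animals or in few, and in transcripts that vary little or much between animals. Females of the 2-week group came from cohorts 1 (2 animals) and 2 (7 animals), and separated females from cohorts 3 (5 animals) and 4 (7 animals). Since no cohort holds both groups, treatment and cohort cannot be told apart in any value given here.

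After separation, 54 of 14151 IDs tested differed in females at an adjusted p under 0.05 (limma with Benjamini-Hochberg adjustment), which is 0.382% of those tested. Expression was higher in separated females for 19 of them (0.134% of those tested) and lower for 35 (0.247%). With the pair of partners as a replicate block, 7 IDs were called, 0 higher and 7 lower. Rescaling the libraries without the 11 most abundant IDs gave 20 higher and 20 lower, and quantile normalization gave 4 higher and 15 lower. The TPM table gave 3 higher and 10 lower of 13081 IDs tested. That fit also held 2-week female 15 and males without normalized counts, so its animals differ from those of the other fits. Before adjustment, 1381 of the 14151 IDs had a p under 0.05 in limma in either direction, where 5% of the IDs tested is 708. The 1381 were split almost evenly into 698 higher and 683 lower. The adjusted threshold fell between 0.0494 for the last ID called and 0.0509 for the first one not called, and the largest unadjusted p among those called was 0.000188.

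Most of the called differences were moderate. The absolute log2 difference ranged from 0.33 to 5.40 with a median of 0.88, against 0.13 over all IDs tested. Of the 54, 20 differed by less than 1.5-fold, 11 by 1.5-fold to 2-fold and 23 by at least 2-fold. A difference of at least 2-fold was seen at 219 IDs, 131 higher and 88 lower, but 196 of them were not called, and 156 of those 196 had a mean normalized count under 100. Most IDs with a large fold change were thus of low counts and did not pass the test.

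The IDs that rose and those that fell lay at different levels of abundance. The 19 that rose had a median of 382 for their mean normalized count in the 21 females, with a range of 29.7 to 2252, close to the median of 469 over all IDs tested. The 35 that fell had a median of 1696 and a range of 29.7 to 47341. The median log2 difference was 0.90 for those that rose and -0.71 for those that fell. A normalized count is a read count divided by a size factor of the library and is not corrected for transcript length, so these values order read numbers and not molecules.

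**Figure D1:**
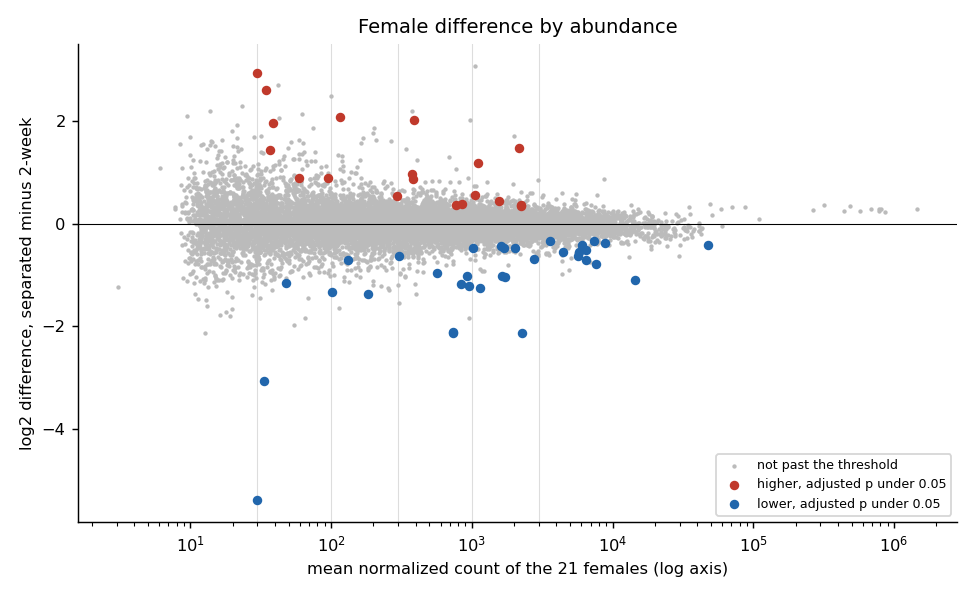
Log2 difference between separated and 2-week paired females (y axis) against the mean normalized count of the 21 females on a log axis (x axis), 1 point per ID tested, with the 54 called IDs in colour. Called IDs that were higher end at a mean of 2252, while called IDs that were lower reach 47341.

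Among the 1633 IDs with a mean of at least 3000 normalized counts, which took 70.6% of all normalized counts, none of the 13 called IDs was higher and all 13 were lower, with absolute log2 differences of 0.33 to 1.09. That is 0.796% of the IDs of this range, against 0.382% of all IDs tested. That count was 1 to 23 lower and 0 or 1 higher with 1 female left out, and 1 lower with the pair as a replicate block. It was 0 without cohort 2, 3 or 4, and 65 higher and 212 lower when the first principal component was fitted as a covariate. Without adjustment, 195 of these abundant IDs had a p under 0.05 and were lower, 11.9% of the range, and 49 were higher, 3.0% of it. That split was 143 lower to 94 higher after rescaling without the 11 most abundant IDs and 118 to 103 after quantile normalization. Their median log2 difference was -0.03, and 41.3% of them were higher in separated females. The direction of that median depended on the scaling, since it was 0.0019 after rescaling without the 11 most abundant IDs and above the median of all IDs after quantile normalization. Sorted by their level in males, 1626 IDs lay in the range of at least 3000, and 13 of them were called, all lower. Male levels of the called IDs were close to the female ones and the calls were unchanged, so this ordering is no separate check.

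At the other end of the scale, unadjusted differences were more often higher than lower. Of 1900 IDs with means of 30 to under 100, 103 were higher and 59 lower at an unadjusted p under 0.05, and 5 were called higher and 2 lower, 0.368% of the range and near the 0.382% of all IDs tested. Of 1238 IDs with means of 10 to under 30, 65 were higher and 36 lower at an unadjusted p under 0.05, and 1 was called in each direction. The calls under 100 were too few to give a direction: 0 were higher and 2 lower with the pair as a replicate block or without 2-week female 13, and 0 higher and 3 lower after quantile normalization. The ranges between them held 2 higher and 3 lower (100 to under 300), 5 higher and 7 lower (300 to under 1000), and 6 higher and 9 lower (1000 to under 3000). None of the 45 IDs that passed the filter only through the males, with a female mean under 10, was called. In TPM the IDs of these low ranges leaned the other way, with 35 higher and 79 lower at an unadjusted p under 0.05, on a scale where the median difference of all IDs was -0.13.

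**Figure D2:**
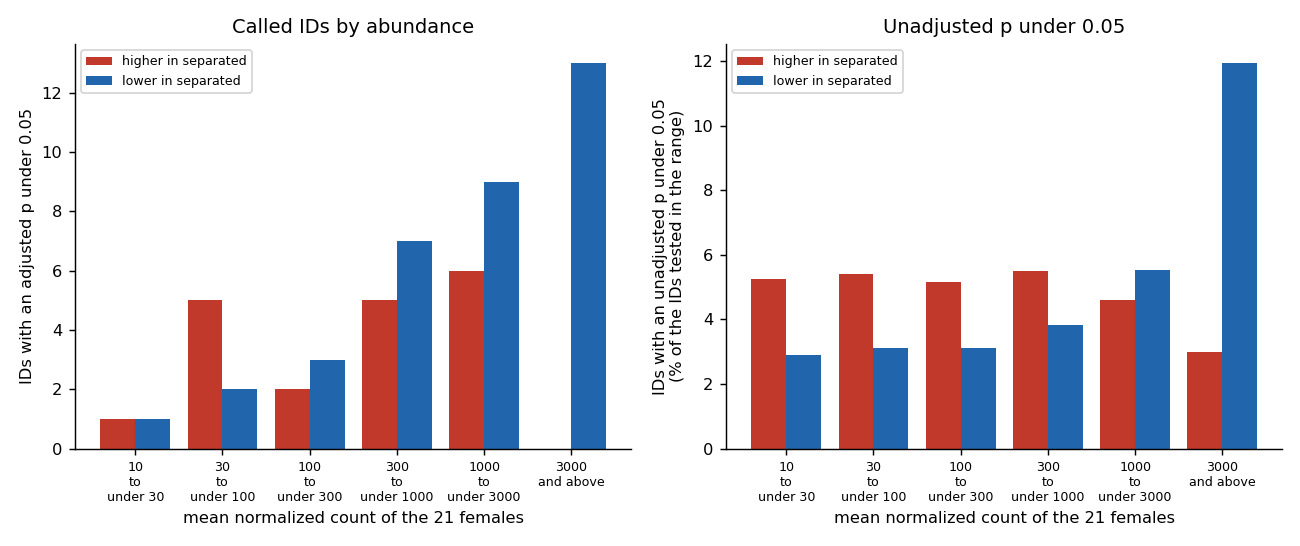
Number of called IDs (left) and percentage of IDs with an unadjusted p under 0.05 (right) by range of mean normalized count in the 21 females, with separate bars for IDs higher and lower in separated females. In the range of 3000 and above all 13 called IDs were lower, and 11.9% of the IDs tested there were lower at an unadjusted p under 0.05 against 3.0% higher.

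What a test can call depends on the error at each level. The median standard error of the log2 difference fell from 0.456 for means of 10 to under 30 to 0.108 for means of at least 3000. The smallest difference that would have passed the threshold with that median error fell from 1.87 to 0.44. A smaller change in the lowest range was not detectable with these animals at the median error. The median absolute difference moved less, from 0.34 to 0.11.

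Higher values among IDs of at least 3000 were not confined to the 11 most abundant IDs, since 41.3% of that range was higher. These 11 IDs all went against the direction of most IDs in their range. Each had a mean of at least 264322 normalized counts, and all 11 had higher values in separated females, by 0.24 to 0.36 on the log2 scale. None passed the test (lowest adjusted p 0.708 in limma). Their differences lay close together, so the 11 need not be separate observations. Their within-group SD was 0.52 to 0.78, above the median of 0.40 over all IDs. Together they took 23.9% ± 6.95 of the normalized counts of a 2-week library (SD, n = 9) against 27.9% ± 7.22 of a separated one (SD, n = 12), a difference within the spread (two-sided exact permutation test, p = 0.216, adjusted p = 0.566 over 4 library measures).

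The lean of the abundant IDs was also a property of single libraries. For each female, the mean deviation of IDs of at least 3000 was taken relative to that of all IDs, on the log2 scale. It was 0.013 ± 0.046 in the 2-week group (SD, n = 9) against -0.027 ± 0.056 in the separated group (SD, n = 12), with 5 of 9 and 7 of 12 animals below 0, so the groups overlapped widely. Across the 21 females it was lower where the read total was higher (Pearson r = -0.494, permutation p = 0.0228, adjusted 0.0304 over 4 relations, and Spearman rho = -0.644, permutation p = 0.002, adjusted 0.008). Without the 2 females farthest from the median read total r was -0.607, and within the cohorts of 7 it was -0.737 in cohort 2 and -0.711 in cohort 4. Cohorts 1 and 3 hold fewer than 6 females each, and no r is given for them. With read total as a covariate, the median difference of IDs of at least 3000 minus that of all IDs was -0.047, against -0.035 without it, with 240 lower and 57 higher at an unadjusted p under 0.05. The read totals themselves differed by less than their spread, with means of 28199583 ± 4816638 reads per 2-week library (SD, n = 9) and 26699690 ± 3549965 per separated library (SD, n = 12; p = 0.425 in a two-sided exact permutation test, adjusted p = 0.566).

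Calls were spread over detection classes much as the tested IDs were. Of the 14151 IDs tested, 13561 had at least 1 read in all 21 females, and 50 of these were called (16 higher and 34 lower), 0.369% against 0.382% of all IDs tested. The 498 IDs read in 18 to 20 females held 3 called IDs, all higher, or 0.602%. The classes below are too small to show a share: 0 of 84 IDs read in 11 to 17 females were called, and 1 of 8 read in 10 females or fewer.

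That last ID was ENSMOCG00000017273, named here after its values were seen. Its normalized count in 2-week females was 69.2 ± 59.4 (SD, n = 9), with a lowest value of 1.04, a median of 53.7 and a highest value of 178. All 12 separated females had 0 reads, as did the males of both groups. With a floor of 3 reads over the separated group, which is a mean of 0.257 normalized counts, its level was at least 269-fold lower after separation. It passed the filter on low values only through the 2-week females, and 3 groups at 0 reads enter the shared spread. Its p-values therefore add little to the reads themselves. The adjusted p was 8.32e-11 (limma, 42 libraries), 3.5e-05 (limma, females alone) and 0.00416 (edgeR). Every 2-week female had some reads of it and no separated female had any, although the lowest 2-week value rested on 1 read.

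No other ID switched on or off in this complete way. Over all 23038 IDs, without a filter on level, 13645 were read in all 21 females, 4672 in none and 4721 in some. ENSMOCG00000017273 was the 1 ID read in all 9 females of the 2-week group and in no separated female, and no ID (0) was read in all 12 separated females and in none of the 2-week females. Reads in at least 5 of 9 2-week females and in no separated female were found at 3 IDs, and reads in at least 7 of 12 separated females and in no 2-week female at 2 IDs. The number of IDs read per library did not separate the groups: 15813 ± 371 per 2-week library (SD, n = 9) and 15818 ± 347 per separated library (SD, n = 12; p = 0.976 in a two-sided exact permutation test). After all libraries were thinned to 20067514 reads the means were 15655 and 15689 (two-sided exact permutation test, p = 0.787).

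The 54 called IDs fell in similar numbers among genes that varied little and genes that varied much between animals. Sorted into quintiles by the SD of log2 values within the female groups, from the lowest SD to the highest, the IDs tested held 12, 10, 11, 10 and 11 called IDs. Sorted by the SD in males, the quintiles held 9, 12, 8, 11 and 14. The male spread also entered the fit that made the calls, so this ordering is not independent of them. The 7 IDs called in every fit that left out 1 female, described below, lay otherwise, with 1, 0, 1, 0 and 5 in the quintiles of female SD. Some of those 5 moved together, so they are not all separate observations. The median within-group SD was 0.403 for the called IDs and 0.400 for all IDs tested.

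The size that a call required rose with the SD, and the called sizes follow from that threshold. In the lowest quintile (SD 0.065 to 0.230) the median absolute log2 difference of the called IDs was 0.38, and a difference of 0.34 was enough at the median error. In the highest quintile (SD 0.756 to 3.78) the called IDs had a median of 2.13, and 1.79 was needed. That quintile held 190 of the 219 IDs that differed by at least 2-fold, of which 11 were called. The share of IDs with an unadjusted p under 0.05 fell from 13.1% in the lowest quintile to 7.0% in the highest. As a description across IDs, the female SD followed the male SD (Spearman rho = 0.942 over 14151 IDs, which share libraries of partners and normalization) and was lower for abundant IDs (rho = -0.674 with the mean count).

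**Figure D3:**
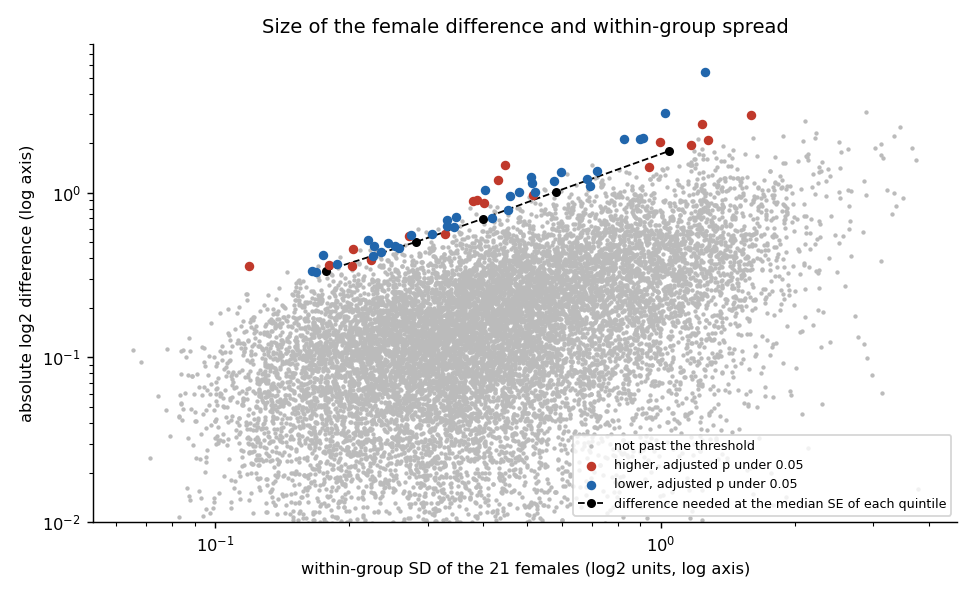
Absolute log2 difference between the female groups (y axis) against the within-group SD of log2 values (x axis), both on log axes, 1 point per ID tested with called IDs in colour, and a dashed line through the difference needed to pass at the median error of each quintile. The median of the called IDs rises from 0.38 in the lowest quintile to 2.13 in the highest, and each quintile holds 10 to 12 of them.

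The animals of the groups were about equally scattered. The SD was larger in 2-week females for 56.6% of the IDs tested, with medians of 0.402 in 2-week and 0.385 in separated females. That lean ended at 49.4% without 2-week female 9 and at 49.7% without 2-week female 2. It grew to 62.5% without separated female 17, the highest share with 1 female left out. The median absolute deviation of a library from the median of the other libraries of its group was 0.322 ± 0.090 in the 2-week group (SD, n = 9) against 0.281 ± 0.087 in the separated group (SD, n = 12), and these did not differ beyond their spread (two-sided exact permutation test, p = 0.303, adjusted p = 0.566).

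For each direction, the called ID with the lowest and the one with the highest within-group SD among those with a mean of at least 100 show the extremes of this spread. ENSMOCG00000019702 rose with little scatter. Its normalized counts in 2-week females had a lowest value of 1664, a median of 1912 and a highest value of 2339, and in separated females 2205, 2453 and 2855. The groups overlapped at their edges only, and all 12 separated females lay above the 2-week mean. The means were 1942 ± 191 (SD, n = 9) and 2482 ± 180 (SD, n = 12), a log2 difference of 0.36 ± 0.08 (SE; limma adjusted p = 0.035, and 0.0977 with the pair as a replicate block).

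ENSMOCG00000003694 rose by far more but with wide scatter. In 2-week females it had a lowest value of 5.31 normalized counts, a median of 24.8 and a highest of 101, and in separated females 24.7, 105 and 541. Of the 12 separated females, 11 lay above the 2-week mean, and the highest 2-week animal reached about the middle of the separated group. The log2 difference was 2.09 ± 0.47 (SE; limma adjusted p = 0.035, and 0.0724 with the pair as a replicate block).

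ENSMOCG00000008664 fell with little scatter. It had a lowest value of 3462 normalized counts, a median of 4129 and a highest of 4476 in 2-week females, against 2462, 3276 and 4002 in separated females. All 12 separated females lay below the 2-week mean of 4075 ± 340 (SD, n = 9), though the highest separated animals lay within the 2-week range. The log2 difference was -0.34 ± 0.08 (SE; limma adjusted p = 0.0426, and 0.116 with the pair as a replicate block).

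ENSMOCG00000018254 fell most among the 4. Its lowest, median and highest normalized counts were 419, 1208 and 2356 in 2-week females and 69.8, 273 and 519 in separated females. The 2 groups overlapped in a narrow zone, and all 12 separated females lay below the 2-week mean. The means were 1305 ± 645 (SD, n = 9) and 304 ± 152 (SD, n = 12), a log2 difference of -2.14 ± 0.35 (SE; limma adjusted p = 0.000842).

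**Figure D4:**
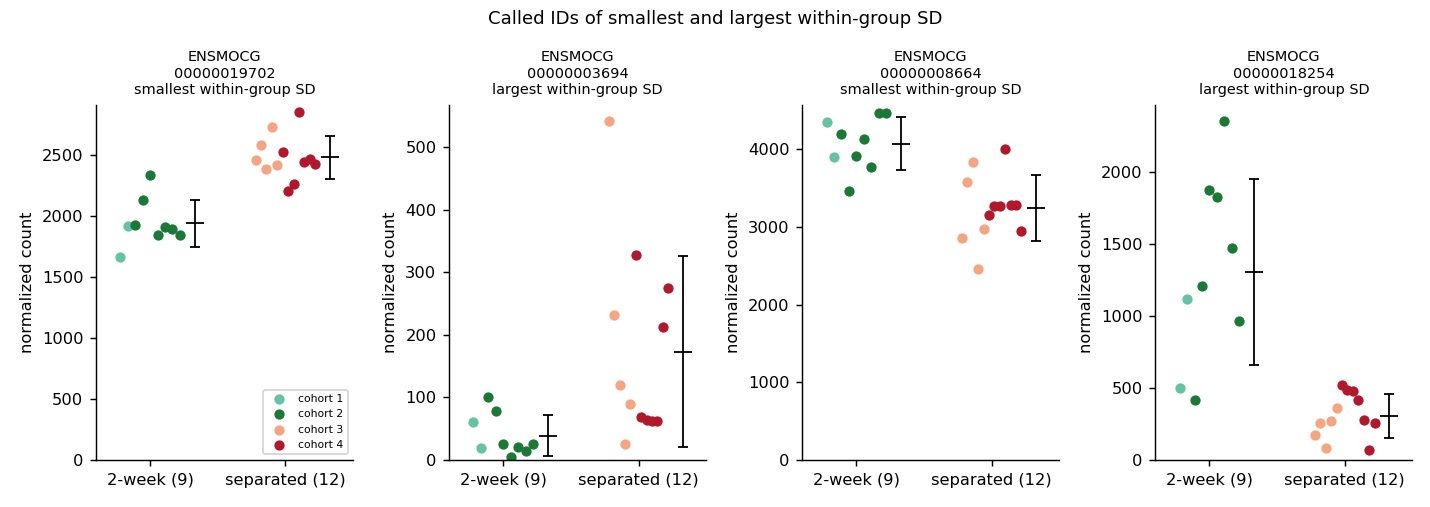
Normalized counts of ENSMOCG00000019702, ENSMOCG00000003694, ENSMOCG00000008664 and ENSMOCG00000018254 in each of the 21 females (points, coloured by cohort), with the mean and SD of each group beside the points. The groups of ENSMOCG00000019702 and ENSMOCG00000008664 differ by a small step with little scatter, and those of ENSMOCG00000003694 and ENSMOCG00000018254 by a large step with wide scatter.

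Complete separation of the groups was rare. At 6 of 14151 IDs (0.0424%) no separated female lay within the range of the 2-week females, 2 of them higher and 4 lower. Of these 6, 5 were called, 1 higher and 4 lower. ENSMOCG00000017273, which passed the filter only through the 2-week females, is 1 of the 4. The other 49 called IDs had at least 1 animal within the range of the other group.

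The number of called IDs depended on single animals. With 1 female left out at a time, between 7 and 86 IDs were called. The count fell to 7, with none higher, without 2-week female 13, to 9 without female 14, to 13 without female 2 and to 14 without female 12. It rose to 86 without 2-week female 10, to 83 without female 8 and to 79 without female 11. Leaving out a separated female gave 16 (female 25) to 57 (female 20). A called ID kept its call in a median of 9 of these 21 fits, and 31 of the 54 kept it in fewer than 11.

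A set of 7 IDs was called in all 21 of these fits, and all 7 were lower in separated females, with log2 differences of -5.40 to -0.51 and mean counts of 29.7 to 6489. ENSMOCG00000018254 and ENSMOCG00000017273 are among them. ENSMOCG00000017273 set both the -5.40 and the 29.7. It passed the filter only through the 2-week females and had no reads in any other group, so its calls here add little. The 7 IDs called with the pair as a replicate block were the same 7. Another of the 7 had nearly the same means in 2-week and separated females as ENSMOCG00000018254 (1301 and 306 against 1305 and 304). One more, with means of 4088 and 934, had nearly the same log2 difference as ENSMOCG00000018254 (-2.13 against -2.14). Its cohort means ran in parallel with those of that ID. The 7 calls are thus not all separate observations. The other named IDs, ENSMOCG00000019702, ENSMOCG00000003694 and ENSMOCG00000008664, kept their call in 9, 12 and 7 of the 21 fits. None of the 19 IDs that rose was called in every one of these fits, since none was without 2-week female 13.

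**Figure D5:**
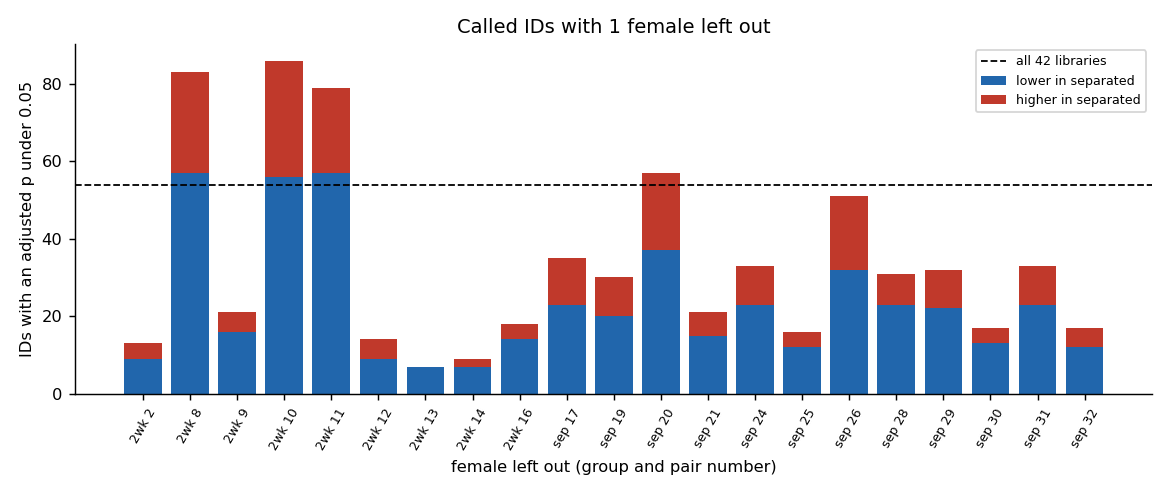
Number of IDs called when 1 of the 21 females was left out, by the group and pair number of that female, split into higher and lower in separated females, against the 54 called with all 21 (dashed line). The counts run from 7 without 2-week female 13 to 86 without 2-week female 10.

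Differences between cohorts of the same treatment are given without a test. They rest on 2 against 7 and on 5 against 7 females. Differences between smaller groups carry more sampling error, so their sizes cannot be set directly against that of treatment. Over all IDs tested, the median absolute log2 difference was 0.133 between the treatment groups, 0.326 between cohorts 2 and 1 within the 2-week females and 0.118 between cohorts 4 and 3 within the separated females. At the 54 called IDs it was 0.88 between the treatment groups, 0.191 between cohorts 2 and 1 and 0.132 between cohorts 4 and 3, values that the choice of these IDs by the treatment groups bears on. Without cohort 1, 27 IDs were called, of which 22 were among the 54. Without cohort 2, 2 were called and 0 of them were among the 54. Without cohort 3, 5 were called, of which 2 were among the 54, and without cohort 4, all 4 called IDs were.

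The partners of these females give the same comparison in other animals, 12 separated against 9 2-week males, from the same pairs and cohorts. At the 54 IDs, the male difference had the same sign as the female one at 53 (98.1%), against 71.1% over all IDs tested, and it was smaller than the female one at all 54. The median absolute male difference was 0.44 against 0.88 in females, and 0 of the 54 were called in males. The 54 were chosen for their female difference, so no order of the sexes can be read from these sizes. The shares of equal sign are not alike either, since the 71.1% covers IDs with a median absolute female difference of 0.13. Partners shared pairs and cohorts, so equal signs cannot tell treatment from cohort. The difference between the sexes was called at 1 of the 54, ENSMOCG00000017273, whose male libraries all had 0 reads, and was not past the threshold at the other 53.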

How the data were processed

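PolyA RNA of each animal was sequenced as 1 bulk library. The authors deposited normalized counts for 42 libraries; these signal values are read counts divided by 1 size factor per library, with DESeq2 and DESeq named, without versions, in the submitters' processing notes. In each deposited column 100.0% of the values were whole multiples of 1 step, within 0.01 of a read, so reads were recovered from the steps. The authors also deposited TPM for 51 libraries. For aligner, counter, build and annotation, nothing is given in the sources used here.

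The difference was fitted with limma 3.58.1 (R 4.3.3) on log2(normalized count + 1), with a trended, robust eBayes step. IDs with a mean of at least 10 over the 42 libraries were kept, 14151 in all. Means of treatment by sex were fitted, so the males share in the estimate of the spread, and p-values were adjusted by Benjamini-Hochberg over all IDs tested. Fold changes on this scale understate the change of low IDs. Abundance, detection and SD groups were described without a test, because IDs are not replicates. Library measures used two-sided exact permutation tests over the 21 females. On recovered reads, edgeR 4.0.16 called 75 IDs (19 higher and 56 lower) and DESeq2 1.42.0 called 163 (64 higher and 99 lower).

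Named IDs were those with the smallest and largest within-group SD per direction among called IDs with a mean of at least 100. The animals, groupings and lists were chosen with earlier results of these data known. Lists of gene symbols could not be run, since no ID matched a symbol. Pair numbers come from the pair labels of cohabiting partners and so pair female and male libraries; the consensus correlation of partners over IDs was 0.396. The fit was checked on simulated counts drawn without correlation of partners and without cohort shifts, so that check does not cover either. Animals are separate voles. The SDs are over animals, and the SEs of limma rest on the spread between animals within groups. Only the floor of 3 reads covers counting error alone.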

Additional observations from a re-analysis of the deposited data

Results flagged for a closer look

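ENSMOCG00000017273 was the 1 ID among the 54 with a call for the difference between the sexes (limma). The separated minus 2-week difference was 5.40 higher on the log2 scale in males than in females. All males were at 0 reads in both groups, so the male difference was fixed at 0 and this value restates the female one, a change from 69.2 normalized counts to 0 reads. No response in males could be measured, and the 5.40 depends on the added count of 1.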

How the results depend on the processing

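The count of 54 called IDs moved to 34 with the 21 females fitted alone, 163 with DESeq2, 19 after quantile normalization, 13 in TPM, 1126 with the first principal component of group-centred values as a covariate, 316 with that of uncentred values (added after seeing the data), 86 with read total as a covariate, 9 with array weights, 32 without the trend and robust options, and 27, 2, 5 and 4 without cohort 1, 2, 3 and 4. It was 7 to 86 with 1 female left out, and 7 with the pair as a replicate block. The block left 2 of the 5 named IDs past the threshold, ENSMOCG00000018254 and ENSMOCG00000017273. Other pseudocounts, filters, edgeR and TMM stayed within 1.5 times of 54. The TPM fit differed in its animals as well as its scale, since it also held 2-week female 15.

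The median difference of IDs of at least 3000 minus that of all IDs was -0.035, and -0.044 to -0.028 with 1 female left out. It was reversed after quantile normalization, at 0.0048. Over 43 alternatives, abundant IDs at an unadjusted p under 0.05 were more often lower than higher in 43 (118 to 103 after quantile normalization), and IDs under 100 more often higher in 42, the exception being TPM. The difference in IDs detected changed sign with 1 female left out (-78.8 to 64.5). The cause of these changes was not tested. At 10 to under 30 normalized counts, a log2 difference below 1.87 was not detectable at the median error.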

Other observations

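Female 15 of the 2-week group has values in the TPM table only and entered no fit other than the one on TPM. On the log2(TPM + 0.5) scale it lay nearer the mean of the 9 other 2-week females than that of the separated females at 36 of the 54 called IDs: 10 of the 19 that rose and 26 of the 35 that fell. It lay beyond the separated mean at 11 of them. With 0 for the 2-week mean and 1 for the separated mean, its median position was 0.01. These values rest on 1 library, and no share over all IDs is given beside them.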
